A study of Mus musculus with 12 samples.

Results

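Genes of the MAP kinase, PI3 kinase, AMP-activated kinase, protein kinase C, casein kinase, WNK and JAK families were followed in the renal medulla of water-restricted and control mice. The members were the genes whose single symbol in the platform annotation began with one of those family names, together with the dual-specificity phosphatases (Dusp), Gadd45 and S6 kinases. The rule found 62 of the 6786 named genes, carried by 91 clones, that is, spotted DNA fragments. Of the 62 genes, 40 had 1 clone, 16 had 2 and 6 had 3 or 4. A further 5 clones matched the rule but were annotated to several genes and were left out. Some members are not kinases: the rule also took Prkcsh, a glucosidase subunit of the endoplasmic reticulum, and scaffold or interacting proteins such as Mapk8ip3.

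Amplified RNA of 3 water-restricted (WR) mice was hybridised against that of 3 control (C) mice on 12 arrays of 2 colours, which covered all 9 pairs, and 3 pairs were repeated with the dyes exchanged. An array is called here by its mice, so that WR2-C2 is WR mouse 2 against control mouse 2. The labels used here state neither strain, age, sex nor how long water was restricted. The p-values for the groups measure the spread between levels fitted for these mice, which also holds the noise of the arrays. Every deposited value is a log2 ratio of 2 mice, so the level of a tissue marker cannot be read and the labelled tissue could not be checked in that way. In whole tissue, fewer cells of a type and less RNA per cell cannot be told apart.

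MAP kinase signalling runs through tiers of kinases, each switching on the next by phosphorylation, and the phosphatases and scaffolds around them set how long and where the signal lasts. PI3 kinase makes a membrane lipid that recruits AKT, a kinase of growth and survival. The inner kidney is salty and poor in oxygen when urine is concentrated. Cells brought into hypertonic medium activate p38 and JNK, the stress branches of the MAP kinases, while WNK kinases set the activity of salt cotransporters in the nephron and AMP-activated kinase (AMPK) senses low cellular energy. These kinases are mostly switched on by phosphorylation, which RNA does not show.

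Promoter sequence is shown for the 4 members that led the comparison of the groups, Map4k5 and Dusp3 on one side and Pik3r1 and Prkab2 on the other. RefSeq promoters of assembly GRCm38.p6 were matched by symbol for 51 of the 62 genes, with 70 annotated starts. Each stretch is the 250 bases before the start, on the strand of the gene, and capitals mark GGGCGG on either strand, the GC box bound by Sp1. Pik3r1 has 2 listed starts and the first is shown.
Map4k5, chr12:69893164-69893413, minus strand: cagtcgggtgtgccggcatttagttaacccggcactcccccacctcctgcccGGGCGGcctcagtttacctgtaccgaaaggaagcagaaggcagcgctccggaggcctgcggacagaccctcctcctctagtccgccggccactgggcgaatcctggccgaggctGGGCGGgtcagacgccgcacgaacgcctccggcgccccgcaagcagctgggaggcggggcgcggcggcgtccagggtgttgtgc
Dusp3, chr11:101984792-101985041, minus strand: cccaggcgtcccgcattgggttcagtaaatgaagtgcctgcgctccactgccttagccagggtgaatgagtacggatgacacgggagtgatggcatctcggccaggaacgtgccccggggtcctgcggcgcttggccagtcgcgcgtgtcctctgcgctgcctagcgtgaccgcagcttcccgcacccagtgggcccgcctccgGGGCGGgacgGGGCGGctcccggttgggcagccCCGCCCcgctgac
Pik3r1, chr13:101768218-101768467, minus strand: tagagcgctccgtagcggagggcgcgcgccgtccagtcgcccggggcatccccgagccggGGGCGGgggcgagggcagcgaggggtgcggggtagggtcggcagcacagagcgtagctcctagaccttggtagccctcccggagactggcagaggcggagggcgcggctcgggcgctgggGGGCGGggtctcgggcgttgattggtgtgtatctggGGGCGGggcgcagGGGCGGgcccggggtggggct
Prkab2, chr3:97657962-97658211, plus strand: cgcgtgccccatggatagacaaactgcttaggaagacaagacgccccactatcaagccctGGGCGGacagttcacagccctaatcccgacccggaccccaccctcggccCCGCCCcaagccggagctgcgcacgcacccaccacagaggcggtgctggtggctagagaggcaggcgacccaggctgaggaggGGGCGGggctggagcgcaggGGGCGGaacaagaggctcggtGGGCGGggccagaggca
All 4 are rich in G and C, from 69.2% in Prkab2 to 76.4% in Pik3r1, with 2 GC boxes in Map4k5, 3 in Dusp3, 4 in Pik3r1 and 5 in Prkab2. The second listed start of Pik3r1, not shown, has 42.4% and 0 GC boxes. Of the 70 member promoters, 67.1% held a GC box, against 32.7% of all 32851 listed promoters, which were not limited to genes on the arrays.

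The core of the osmotic response element, TGGAAA, which the hypertonicity factor Nfat5 binds, was searched on both strands because the medulla becomes more concentrated when water is short. It stood in 5 of the 70 member promoters (7.14%), against 18.6% of all promoters, whose median G and C content was 52.4% against 63.0% for the member promoters. The 4 leading genes shown above had no TGGAAA in any listed window. The AP-1 site TGANTCA stood in 2.86% of member promoters, at Map2k6 and Pik3ca, against 6.75% of all, and the cyclic AMP element TGACGTCA in 2.86%, at Csnk1g2 and Jak1, against 1.55%. TGACGTCA does not contain TGANTCA. The 5 promoters with TGGAAA were those of Akt1, Akt2, Mapk6, Prkcz and Wnk4. Below are 60 bases around the match, in capitals, for 2 of these, Wnk4 and Mapk6. The match in Jak1, the member with the strongest dye response, is shown as well.
Wnk4, chr11:101260355-101260414, plus strand: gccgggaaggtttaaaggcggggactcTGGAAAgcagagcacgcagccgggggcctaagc
Mapk6, first of 2 listed starts, chr9:75410089-75410148, minus strand: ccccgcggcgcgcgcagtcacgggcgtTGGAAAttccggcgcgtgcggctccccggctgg
Jak1, chr4:101265292-101265351, minus strand: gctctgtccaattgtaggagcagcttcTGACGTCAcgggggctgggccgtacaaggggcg
A match is a run of letters and says nothing on whether a factor binds there.

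The sign of the values rests on an assumption. The sources used here do not say which dye is the numerator, so arrays were turned to one orientation and a positive difference means higher in WR mice only if the numerator of the deposited ratio was Alexa Fluor 546 and its denominator 647. If it is the reverse, every sign below turns round. Whether the authors had already turned some arrays is also not stated. Arrays of the same mice in both orientations correlated across all clones, as deposited, at -0.14, 0.13 and -0.13, and after turning 33, 26 and 30 of the 62 members had the same sign on both. Read as running by dye, 12.8% of genes had an unadjusted limma F-test p under 0.05 for differences between mice of a group, and read as already turned, 4.44% did. The first reading was used, and values under the second are given for the members and lists that it moves most.

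No member passed the threshold between WR and control mice. By limma on mouse levels, 0 of 62 members and 0 of 6786 genes (0%) had an adjusted p under 0.05, and the smallest adjusted p of a member was 0.984. At an unadjusted p under 0.05 there was 1 member, Map4k5 (1.61%), against 4.97% of all genes. It was on the positive side, where 3.21% of all genes passed, and 0 members were on the negative side, where 1.75% did. The levels of the 3 WR mice lay wholly apart from those of the 3 control mice in 6 members (9.68%), against 9.8% of all genes, so the members were near the background here. Of the 6, Map4k5 and Dusp3 were on the positive side, against 5.94% of all genes, and Prkab2, Pik3r1, Prkci and Mapk1ip1 on the negative side, against 3.86%. Of the 62 differences 29 were positive and 33 negative, or 33 and 29 with the sign turned, and over all genes 50.7% were positive and 49.3% negative. Their median was -0.02 on the log2 scale, against 0.00 over all genes, and they ran from -0.42 (Prkab2) to 0.56 (Map2k6). A difference of at least 0.5 in either direction was found in 3.23% of members, against 5.48% of all genes. The 95% interval of a member reached 0.41 to either side in the median, from 0.33 to 1.10 with 3 mice per group. Without control mouse 2 the count with an unadjusted p under 0.05 was 2 (3.23%), against 3.8% of all genes. It was 0 without WR mouse 1, WR mouse 3 or control mouse 3, against 3.12%, 2.15% and 3.02% of all genes.

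**Figure D1:**
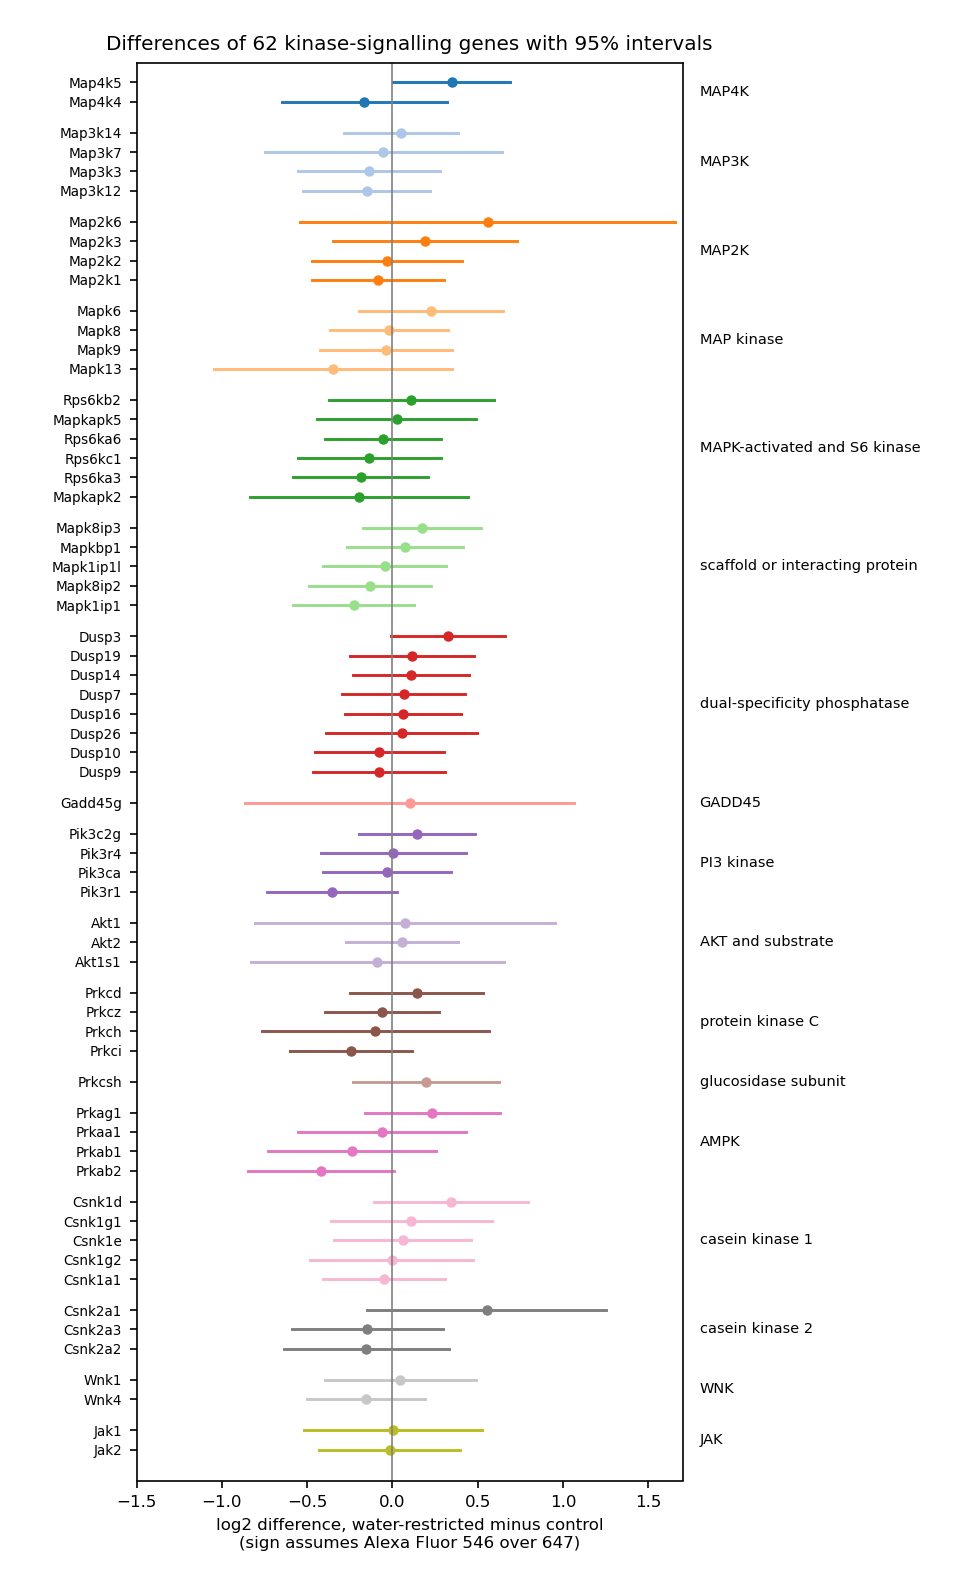
Log2 difference (WR minus control mice, x axis) of each of the 62 genes, grouped by role, with points for the estimate and bars for the 95% interval from limma. Only the bar of Map4k5 stays on one side of 0, and Map2k6 has the widest.

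Map4k5, a kinase at the top of the JNK cascade, had the smallest p. Its levels, relative to the mean of the 6 mice, were 0.16, 0.18 and 0.18 in WR mice 1, 2 and 3, against 0.01, -0.23 and -0.30 in control mice 1, 2 and 3. Averaged over its 2 clones, the WR mice lay close together and above all control mice. With 3 mice on each side, the log2 difference was 0.35 (SE 0.15; adjusted p by limma = 0.984), with a positive value on 11 of 12 arrays. Its 2 clones gave 0.27 and 0.43, and in neither were the WR mice as close together. The clone at 0.27 had 0.29, 0.17 and -0.06 in WR mice, and WR mouse 3 lay below control mouse 1 (0.03). The clone at 0.43 had 0.03, 0.19 and 0.42 in WR mice, and its groups did not overlap. Read as already turned, the difference of the gene was -0.25 (SE 0.14).

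Map4k4, its relative, was spread widely among the WR mice. It had -0.47, 0.29 and -0.07 in the WR mice, against -0.08, 0.14 and 0.18 in the control mice, with a difference of -0.16 (SE 0.21). The groups overlapped. The 3 clones gave 0.07, -0.29 and -0.27.

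Lower in the cascade, the MAP3K genes Map3k3, Map3k7 (TAK1), Map3k12 and Map3k14 (NIK) had differences between -0.15 and 0.05, of which 1 was positive and 3 negative. Among the 4 MAP2K genes, Map2k1 and Map2k2, which activate ERK, had -0.09 and -0.03. Map2k3, which activates p38, had 0.17, 0.29 and -0.18 in WR mice, against 0.21, -0.57 and 0.07 in control mice. Control mouse 2 stood low and the other mice overlapped, giving 0.19 (SE 0.24). The other p38 activator, Map2k6, was singled out after its values were seen. Its difference of 0.56 (SE 0.48) rested on 1 array, WR2-C2, with a log2 ratio of 3.91, and was 0.19 (SE 0.18) without it.

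Of the 4 MAP kinases proper, 1 was positive and 3 negative, and none had an unadjusted p under 0.05. Mapk13, the p38 delta kinase, had -0.81, 0.01 and 0.28 in WR mice, against -0.14, 0.60 and 0.07 in control mice. WR mouse 1 was the lowest of all 6, and the difference was -0.35 (SE 0.31). It was -0.49 (SE 0.20) when read as already turned. Mapk6 (ERK3) had 0.08, 0.30 and -0.05 in WR mice, against 0.04, -0.41 and 0.03 in control mice, a difference of 0.22 (SE 0.18). Only control mouse 2 stood below the rest for this gene, at -0.86 in 1 clone but at 0.05 in the other.

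The JNK kinases lay close to 0. Mapk8 (JNK1) had 0.12, 0.01 and -0.16 in WR mice, against -0.08, 0.00 and 0.11 in control mice, with a difference of -0.02 (SE 0.15, 95% interval -0.37 to 0.32). Mapk9 (JNK2) had -0.23, 0.16 and 0.01 in WR mice, against 0.15, -0.15 and 0.05 in control mice, with a difference of -0.04 (SE 0.17, 95% interval -0.42 to 0.35). The mice of both groups were interleaved for both genes.

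The 6 MAPK-activated and S6 kinases were positive in 2 cases and negative in 4, with differences from -0.19 (Mapkapk2, a p38 target) to 0.11 (Rps6kb2, an S6 kinase). Mapkapk2 had a log2 ratio of -2.01 on the WR2-C2 array, and its difference was 0.05 (SE 0.15) without that array. Rps6ka3 (RSK2), which ERK activates, had -0.19 (SE 0.17). Of the 5 scaffold and interacting proteins 2 were positive and 3 negative. Mapk1ip1 had -0.07, -0.14 and -0.14 in WR mice, against -0.01, 0.04 and 0.32 in control mice. The groups did not overlap, the difference was -0.23 (SE 0.15), and the value was positive on 6 of 12 arrays. Without the WR2-C2 array the Mapk1ip1 groups overlapped, and the difference was -0.18 (SE 0.16). Read as already turned, the difference over all arrays was 0.38 (SE 0.13, limma adjusted p = 0.868). Mapk8ip3, a JNK scaffold that also binds motor proteins, had 0.17 (SE 0.15).

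Dual-specificity phosphatases, which remove phosphate from MAP kinases, were positive in 6 of 8 genes, with a median of 0.07 and a range from -0.08 (Dusp9 and Dusp10) to 0.33 (Dusp3). Dusp3 (VHR) had 0.24, 0.09 and 0.17 in WR mice, against -0.08, -0.29 and -0.11 in control mice. All WR mice lay above all control mice. The log2 difference was 0.33 (SE 0.15, limma adjusted p = 0.996). Arrays whose WR sample carried Alexa Fluor 546 averaged 0.60 and those whose WR sample carried 647 averaged 0.06. The JNK and p38 phosphatases Dusp10 and Dusp16 had -0.08 and 0.06. Gadd45g, a stress-induced activator of the p38 and JNK branch, had -0.87, 0.57 and 0.44 in WR mice, against 0.37, 0.20 and -0.72 in control mice. Its values were scattered in both groups, with a difference of 0.10 (SE 0.42) and a 95% interval from -0.86 to 1.07. That difference was 0.74 (SE 0.36, limma adjusted p = 0.868) when read as already turned.

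**Figure D2:**
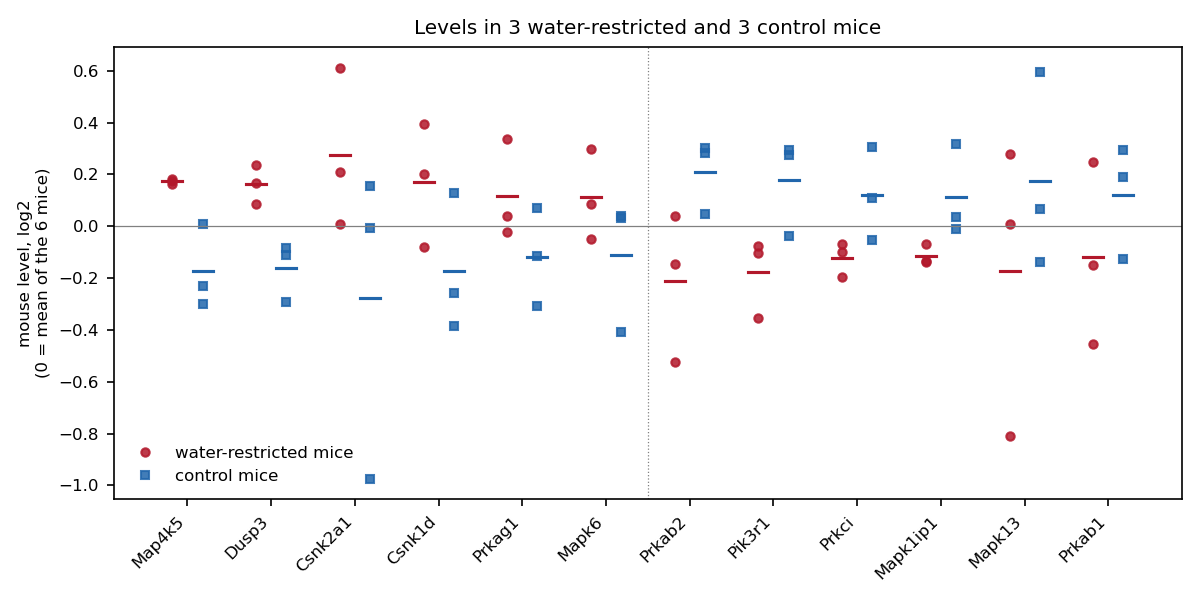
Fitted log2 level of each mouse (y axis, 0 is the mean of the 6 mice) for the 6 genes per side of 0 with the smallest p, with WR mice as circles to the left of control mice as squares and short lines for group means. Map4k5, Dusp3, Prkab2, Pik3r1, Prkci and Mapk1ip1 have groups that do not overlap.

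In the PI3 kinase family, the regulatory subunit Pik3r1 (p85 alpha) had one sign on nearly all arrays. It had -0.08, -0.10 and -0.36 in WR mice, against 0.28, -0.04 and 0.30 in control mice. The groups did not overlap, although WR mouse 1 and control mouse 2 were close. The log2 difference was -0.36 (SE 0.17, limma adjusted p = 0.996), with a negative value on 11 of 12 arrays, and its 2 clones gave -0.23 and -0.48. The clone at -0.23 was positive on 4 of 12 arrays. Its groups overlapped, with WR mouse 2 at 0.07 and control mouse 2 at -0.27. The clone at -0.48 was positive on 0 of 12 arrays, and its groups did not overlap. One sign on at least 11 arrays was found in 3.23% of members, Pik3r1 and Map4k5, against 6.41% of all genes, and one sign on all 12 in 0 members, against 2.05%. Pik3r1 also kept its sign in each orientation, with mean turned ratios of -0.51 and -0.24, and when read as already turned (-0.14, SE 0.13).

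The catalytic subunit Pik3ca, with which Pik3r1 forms the enzyme, had -0.03 (SE 0.16), and Pik3c2g and Pik3r4 had 0.15 (SE 0.15) and 0.01 (SE 0.19). Akt1, the kinase that PI3 kinase recruits, had 0.61, -0.79 and 0.29 in WR mice, against -0.55, 0.48 and -0.04 in control mice. Mice of both groups spanned the same range, and the difference was 0.07 (SE 0.38). Akt2, the isoform known for insulin responses, had -0.04, 0.13 and -0.01 in WR mice, against 0.04, -0.05 and -0.08 in control mice, a difference of 0.06 (SE 0.14, 95% interval -0.27 to 0.38). Akt1s1 (PRAS40), an AKT substrate that inhibits mTOR, had -0.09 (SE 0.32). Read as already turned, its difference was 0.94 (SE 0.42, limma adjusted p = 0.868).

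AMPK is built of a catalytic alpha, a scaffold beta and a nucleotide-sensing gamma subunit, and 4 of its genes were measured, with 1 positive and 3 negative differences. The beta subunit Prkab2 had -0.52, 0.04 and -0.15 in WR mice, against 0.28, 0.05 and 0.30 in control mice. The groups did not overlap, by the narrow gap between WR mouse 2 and control mouse 2. The difference was -0.42 (SE 0.19, limma adjusted p = 0.996). It averaged -0.04 where the WR sample carried Alexa Fluor 546 and -0.71 where the WR sample carried 647, and had the opposite sign, 0.33, when read as already turned. The other beta subunit, Prkab1, had -0.45, -0.15 and 0.25 in WR mice, against -0.13, 0.19 and 0.30 in control mice, with overlap and a difference of -0.24 (SE 0.21). The gamma subunit Prkag1 had -0.02, 0.34 and 0.04 in WR mice, against 0.07, -0.31 and -0.11 in control mice, also with overlap and a difference of 0.23 (SE 0.17). The alpha subunit Prkaa1 had -0.06 (SE 0.21).

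Among the protein kinase C genes 1 was positive and 3 negative. Prkci, an atypical isoform of epithelial polarity, had -0.07, -0.20 and -0.10 in WR mice, against 0.31, -0.05 and 0.11 in control mice. The groups did not overlap, by the narrow gap between WR mouse 1 and control mouse 2, and the difference was -0.24 (SE 0.16). Without the WR2-C2 array the Prkci groups overlapped, and the difference was -0.16 (SE 0.18). The other atypical isoform, Prkcz, had -0.06 (SE 0.14). Prkch had -0.67, 0.25 and 0.27 in WR mice, against -0.36, 0.27 and 0.24 in control mice. Mouse 1 of each group stood below the other mice, and the difference was -0.10 (SE 0.29). That pattern was in 1 of the 2 clones, with WR mouse 1 at -1.04 and control mouse 1 at -0.67. In the other clone control mouse 1 (-0.05) lay above control mouse 2 (-0.19).

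Casein kinases, broadly acting serine and threonine kinases, included 1 of the 2 members with a difference of at least 0.5. Csnk2a1, the catalytic subunit of casein kinase 2, had 0.21, 0.61 and 0.01 in WR mice, against 0.15, -0.97 and -0.01 in control mice. Control mouse 2 stood low, and the difference of 0.55 (SE 0.31) was 0.36 (SE 0.18) without the WR2-C2 array and 0.20 without control mouse 2. Under the second reading it was 0.04 (SE 0.26). Csnk2a2 had 0.08, -0.35 and 0.03 in WR mice, against -0.22, 0.43 and 0.03 in control mice. Here the same 2 mice moved in the other direction, with a difference of -0.15 (SE 0.21), which was -0.04 without that array. This was mostly in 1 of the 3 Csnk2a2 clones, with WR mouse 2 at -1.16 and control mouse 2 at 1.30. Csnk2a3 is a near-identical copy of Csnk2a1, so their clones may share signal, and it had -0.15 (SE 0.19).

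In casein kinase 1, a regulator of the circadian clock and of Wnt signalling, 3 genes were positive and 2 negative. Csnk1d had -0.08, 0.20 and 0.39 in WR mice, against -0.38, -0.26 and 0.13 in control mice, with overlap. Its difference of 0.34 (SE 0.20) was 0.14 (SE 0.25) without the WR2-C2 array. Csnk1a1 had -0.08, 0.04 and -0.04 in WR mice, against 0.18, 0.06 and -0.17 in control mice, a difference of -0.05 (SE 0.16). Its 4 clones did not share a sign, at -0.24, -0.20, 0.14 and 0.10.

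Of the WNK kinases 1 was positive and 1 negative. Wnk1 had -0.36, 0.25 and 0.18 in WR mice, against -0.11, 0.09 and -0.05 in control mice, with a difference of 0.05 (SE 0.19, 95% interval -0.40 to 0.49). Wnk4 had 0.06, -0.19 and -0.09 in WR mice, against -0.05, 0.11 and 0.17 in control mice, with a difference of -0.15 (SE 0.15, 95% interval -0.50 to 0.19). The Wnk4 difference under the second reading was 0.34 (SE 0.16, limma adjusted p = 0.868). Both genes as first given overlapped between the groups.

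The cytokine receptor kinases also showed no separation. Jak2 had 0.31, -0.27 and -0.06 in WR mice, against 0.00, 0.06 and -0.03 in control mice. Its difference was -0.02 (SE 0.18), and its 3 clones gave -0.23, 0.06 and 0.12. Jak1 had -0.23, 0.28 and -0.05 in WR mice, against 0.42, -0.13 and -0.30 in control mice, with a difference of 0.00 (SE 0.23).

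Clones of 1 gene often lay on opposite sides of 0. Among members with more than 1 clone, the widest ranges were those of Csnk2a2 (-0.47 to 0.07), Csnk1e (-0.21 to 0.33), Csnk1a1 (-0.24 to 0.14), Map4k4 (-0.29 to 0.07) and Jak2 (-0.23 to 0.12). Wnk1 had clones at -0.07, 0.09 and 0.11. Map4k5, Pik3r1 and Mapk6, at 0.35 and 0.10 for its 2 clones, were among those whose clones had 1 sign.

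**Figure D3:**
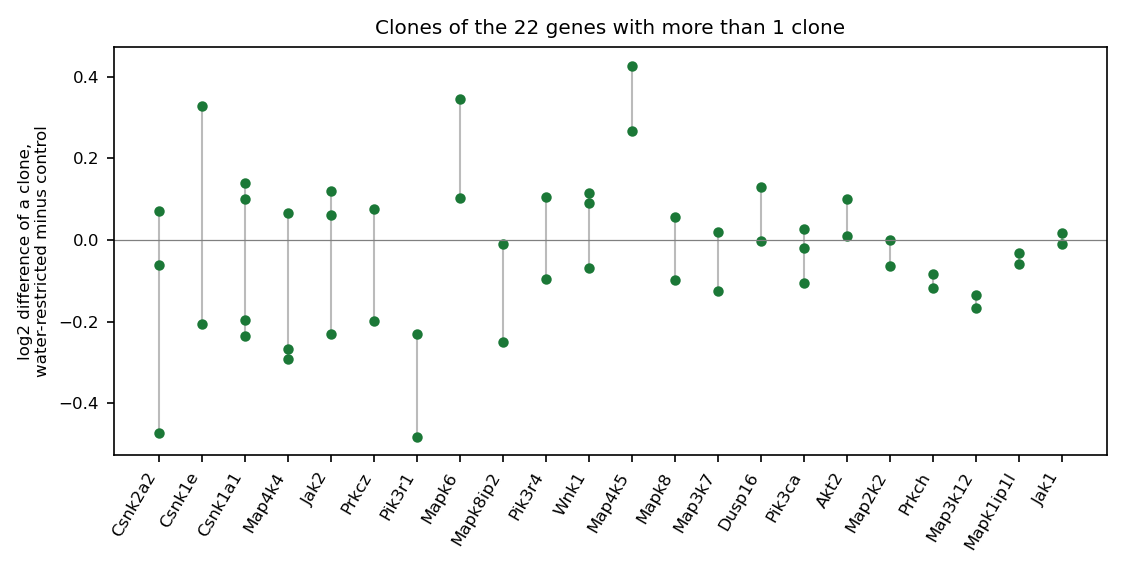
Log2 difference (WR minus control mice, y axis) of each clone of the genes with more than 1 clone, ordered by the range between clones, which the grey lines span. Csnk2a2 and Csnk1e have the widest ranges, and both clones of Map4k5 are above and both of Pik3r1 below 0.

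Differences between individual mice of a group were tested against the error between arrays. By limma's F-test, 0 of 62 members passed, against 0.206% of all genes. Unadjusted, 7 members (11.3%) had a p under 0.05, against 12.8% of all genes. The largest F among members were those of Mapk13 (F = 9.74, limma adjusted p = 0.166), Map2k3, Prkch, Akt1 and Csnk2a1, with adjusted p from 0.262 to 0.368 for the last 4. Without the WR2-C2 array, Mapk13 was the 1 member that passed (F = 16.6, limma adjusted p = 0.0474), against 0.737% of all genes. Its levels were then -0.86, 0.26 and 0.23 in the WR mice, against -0.09, 0.35 and 0.11 in the control mice, so WR mouse 1 remained the one set apart.

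That array had the widest values of the series. Its SD over spots was 1.21, against 0.515 to 0.764 on the other 11, the SD over the 62 members was 0.937, against 0.352 to 0.580, and the median gap between the 2 spots of a member clone was 0.432, against 0.159 to 0.309. Without it, Map4k5 (0.38), Dusp3 (0.34), Pik3r1 (-0.37) and Prkab2 (-0.46) had an unadjusted p under 0.05, with limma adjusted p from 0.710 to 0.803. These 4 are 6.45% of the members, against 6% of all genes in the same setting. The Gadd45g difference was then -0.38 (SE 0.57) and that of Akt1 0.25 (SE 0.25).

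Some members followed the dye a sample carried. The dye term passed in 5 of 62 members (8.06%), against 6.62% of all genes, 4 of them positive (5.11% of all genes) and 1 negative (1.5%). Jak1 led these. Its deposited ratio was above 0 on 12 of 12 arrays, from 0.76 to 1.65 on 5 of the 6 arrays whose WR sample carried Alexa Fluor 546 and at 0.24 on the last, and from 0.44 to 1.38 where the WR sample carried 647. The dye term was 0.99 (SE 0.10, limma adjusted p = 0.00301). It came from 1 of the 2 Jak1 clones, with a median of 2.07 and 12 of 12 arrays above 0, while the other had a median of -0.22 and 5 of 12. Read as already turned, the same values become a group difference of 0.98 (SE 0.13), which also missed the threshold (limma adjusted p = 0.176). Under that reading the Jak1 levels were 0.44, 0.46 and 0.56 in WR mice, against -0.38, -0.58 and -0.50 in control mice.

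Prkag1 had a dye term of 0.64 (SE 0.09, limma adjusted p = 0.0117), with deposited ratios above 0 on 12 of 12 arrays. Mapk13 had -0.49 (SE 0.09, adjusted p = 0.0203 by limma), Prkcsh 0.42 (SE 0.08, adjusted p = 0.0222) and Dusp3 0.27 (SE 0.07, adjusted p = 0.0427). Read as already turned, Prkag1 had a group difference of 0.67 (SE 0.18, limma adjusted p = 0.868) and Prkcsh one of 0.43 (SE 0.13, limma adjusted p = 0.868). Without any 1 mouse, in fits with 8 arrays, 0 members had a dye term past the threshold, except 1 without control mouse 2, and at most 0.103% of all genes had one.

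**Figure D4:**
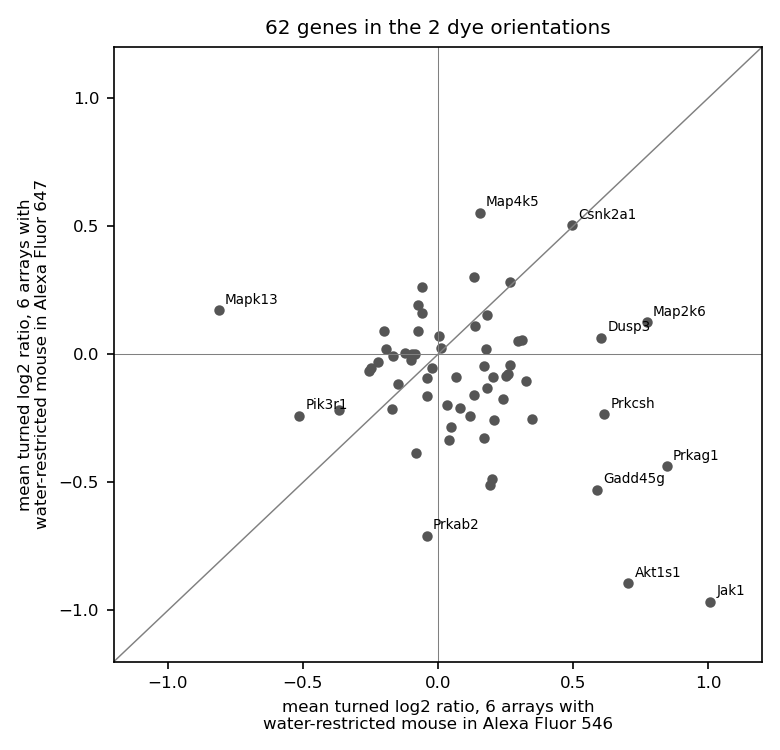
Mean turned log2 ratio of each of the 62 genes on the 6 arrays whose WR sample carried Alexa Fluor 546 (x axis) and on the 6 where the WR sample carried 647 (y axis), with the line of equal values. Jak1 lies at 1.01 and -0.97, at the lower right, Csnk2a1 on the line, and Pik3r1 below 0 on both axes.

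**Figure D5:**
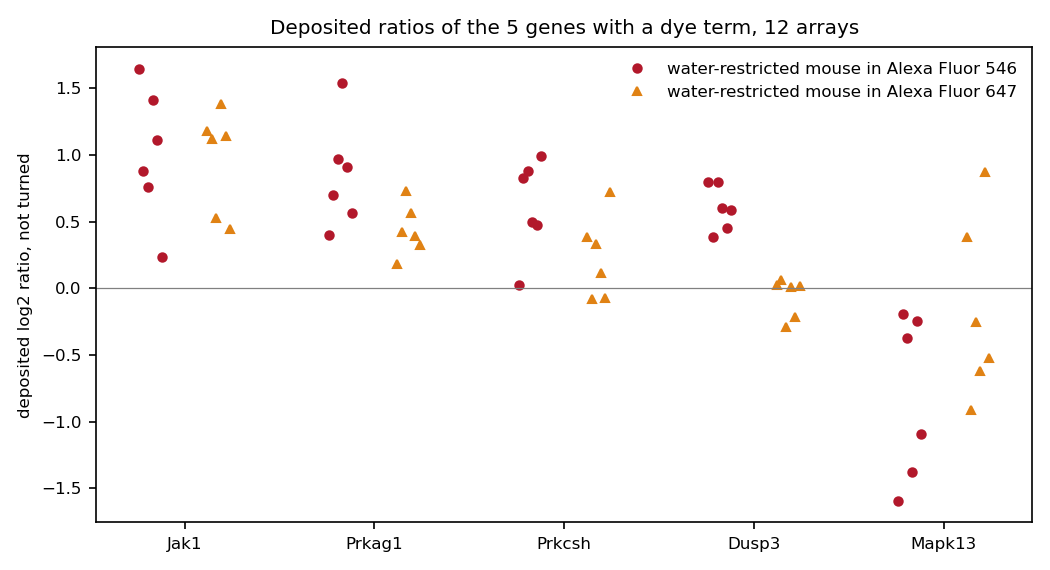
Deposited log2 ratio, not turned, of the 5 genes with a dye term on each of the 12 arrays (y axis), with circles for arrays whose WR sample carried Alexa Fluor 546 and triangles for those where the WR sample carried 647. All points of Jak1 and Prkag1 are above 0 in both orientations.

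Genes around these kinases, taken from lists of 5 related pathways, were set beside the members, and 0 of them passed the limma threshold. Of 18 measured Ras and Raf signalling genes 11 were positive and 7 negative, and 0 had an unadjusted p under 0.05. The smallest p was that of Ywhaz, an adaptor that binds Raf, at 0.38 (SE 0.20). Of 17 genes from a list of stress kinase adaptors, small GTPases and related kinases 12 were positive, with a median of 0.12. They were led by the kinase Sgk1 at 0.59 (SE 0.19) and, on the negative side, Txnip, an inhibitor of thioredoxin, at -0.68 (SE 0.23). Among the 5 lists only this one had summed levels wholly apart, from 0.36 to 1.34 in WR mice, against -0.92 to -0.79 in control mice. Under the second reading this list and that of AMPK partners and WNK targets lay wholly apart, also with the WR mice higher.

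Of 15 transcription factors and other targets of MAP kinases 6 were positive and 9 negative. Ier3, an early response gene of ERK, had 0.31, 0.31 and 0.30 in WR mice, against -0.02, -0.64 and -0.25 in control mice, a difference of 0.61 (SE 0.18). Fos, the AP-1 factor that ERK induces, had 0.27 (SE 0.16). Of 16 STAT and SOCS genes 8 were positive and 8 negative, with Socs7 at 0.49 (SE 0.15) and the growth hormone receptor Ghr, which signals through Jak2, at 0.85 (SE 0.34). Of 9 AMPK partners and WNK targets 5 were positive, with Cab39, a partner of the AMPK-activating kinase Stk11, at 0.32 (SE 0.15). Under the second reading the lists had 7 of 18, 13 of 17, 10 of 15, 9 of 16 and 7 of 9 genes positive, in the order given, and 0 passed the limma threshold. Counted over the 5 lists as first read, Sgk1, Ier3, Socs7 and Ghr on the positive side and Txnip and Nfat5 (-0.84, SE 0.34) on the negative side had an unadjusted p under 0.05, with limma adjusted p from 0.771 to 0.936.

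Marker lists of nephron segments were set beside the members, and 0 of their genes passed the limma threshold. Proximal tubule markers (6 of 20 measured, 5 positive, 4 with an unadjusted limma p under 0.05) had summed levels from 2.34 to 3.31 in WR mice, against -5.97 to 1.23 in control mice. Principal cell markers (5 of 15 measured, all negative, 3 with an unadjusted limma p under 0.05) had -1.92 to -1.03 in WR mice, against 0.98 to 2.21 in control mice. The median differences were 1.04 and -0.59. Erythroid markers (3, 2 with an unadjusted limma p under 0.05) had sums from -1.97 to -0.39 in WR mice, against 0.76 to 1.26 in control mice, and the 2 intercalated cell markers, 1 with such a p, had -0.59 to -0.18 in WR mice, against 0.14 to 0.83 in control mice. In these 4 lists the groups lay wholly apart, as did those of 9.8% of all single genes. The sums of endothelium, interstitium and smooth muscle, leukocytes and urothelium overlapped. The intercalated sums rested mostly on Slc4a1 (-0.74), also an erythroid marker, as the other gene, Kit, had -0.05 (SE 0.16). Under the second reading only the principal cell and erythroid sums of these 4 lay wholly apart, in the opposite direction, with the WR mice above the control mice. Median differences of the other marker lists were -0.40 for intercalated cells (2 genes), -0.01 for endothelium (3), -0.23 for interstitium and smooth muscle (8), 0.40 for leukocytes (1), -0.18 for urothelium (3) and -0.74 for erythroid cells (3, with Slc4a1 shared with the intercalated list), and 0 of 11 limb markers were measured. The medians under the second reading were -0.03 for proximal tubule, 0.06 for principal cells, 0.27 for intercalated cells and 0.37 for erythroid cells. The part of these markers in the differences of Map4k5, Dusp3, Pik3r1 and Prkab2 was not tested.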

How the data were processed

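Each of the 31200 spots has, on each of 12 arrays, a log2 ratio of its channels as deposited by the authors; the base was read from the values. How background was corrected, how ratios were normalized and which dye was the numerator is not stated in the labels, and the number of arrays limits the precision. The 2 spots of a clone were averaged to 15600 clones. Of these 9191 had 1 gene, 254 several and 6155 none in the platform annotation, and 9085 were looked up in RefSeq (GRCm38.p6) for current symbols. Clones were averaged to 6786 genes.

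The sign was changed on the 6 arrays where Alexa Fluor 647 labelled the water-restricted sample. Mouse levels were fitted by weighted least squares with a dye term, each array of a dye-swapped pair having a weight of 0.5. The 3 levels of each group were then compared (limma 3.58.1, R 4.3.3, lmFit and eBayes, Benjamini-Hochberg adjustment over all genes, threshold 0.05). Because an array's noise enters the levels of both its mice, the comparison errs to the strict side. Differences between mice of a group and the dye term were tested in limma across the 12 arrays, equally weighted, with technical error only. Steps were tested on simulated data. Mice with the same number were not treated as pairs. The deviations of same-numbered mice from their group means correlated at -0.01, -0.54 and -0.11. Those of mice with different numbers ran from -0.50 to 0.50. These values cannot decide whether mice pair, because the noise of an array enters the levels of both its mice.

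Members and lists were chosen with earlier results of these data known. The named genes were the 6 members per side with the smallest p, the Gadd45, Wnk, Jak, Akt and numbered Mapk genes, the 5 largest F, the 3 smallest dye p and 5 members with 3 or more clones and the widest clone range. The result of 1 further pathway list is not reported here.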

Additional observations from a re-analysis of the deposited data

Results flagged for a closer look

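Among the 6 arrays of each dye orientation, single arrays of 5 of the 26 genes described in full stood far from the other 5. There were 6 such values in 52 groups looked at, and chance gives about 1 in 20. All are turned log2 ratios. Where the WR sample carried Alexa Fluor 546, the WR2-C2 array had 1.05 for Csnk1d, with the others from -0.02 to 0.22, and -1.18 for Csnk2a2, with the others from -0.22 to 0.27. Where the WR sample carried 647, the WR3-C1 array had 1.48 for Csnk1d (others -0.12 to 0.28) and 0.83 for Prkab1 (others -0.70 to -0.16). In the same orientation, the WR1-C2 array had 0.12 for Mapk8 (others -0.18 to -0.08) and -0.30 for Mapk9 (others -0.01 to 0.12).

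The turned log2 ratio differed between the 2 dye orientations, by limma's test of the dye term, for Jak1 (dye term 0.99), Prkag1 (0.64), Mapk13 (-0.49), Prkcsh (0.42) and Dusp3 (0.27). The dye term is an offset of the ratio, and the fitted difference between the groups is the same for both orientations.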

How the results depend on the processing

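Under the alternatives that test the groups, 0 members passed an adjusted p of 0.05 in all but 1. With arrays as replicates, which ignores that mice recur on several arrays, 4 passed (Dusp3, Map4k5, Pik3r1 and Prkab2), as did 468 genes. With random mouse effects, where the ratio of mouse to array variance was 0.15, 99 genes passed and 0 members. From the 6 arrays whose WR sample carried 647, 1 gene passed and it was no member. Counts of members follow with the share of all genes in brackets. At an unadjusted p under 0.05 there was 1 in the report (4.97%), 2 with scale normalization (5.91%), 2 with clones kept apart (3.74% of 15600 clones), 0 with the mouse number as a replicate block (3.83%), 3 with equal weights (5.42%), 4 without the WR2-C2 array (6%), 4 and 7 from arrays whose WR sample carried Alexa Fluor 546 or 647 only (5.32% and 8%), 5 with the sign as deposited (5.35%), 5 with random mouse effects (11.5%) and 9 with arrays as replicates (20.7%). In numbers of genes, the 337 of the report were 543 in 647 only, 782 with random mouse effects and 1407 with arrays as replicates. Leaving out 1 mouse gave 0 to 2 members (146 to 304 genes), a median of -0.0354 to 0.0388, 4 to 11 members whose groups do not overlap (15.3% to 18%, higher than the 9.8% of the report because 2 mice stand against 3), 0 to 1 with a dye term (0% to 0.103%) and 0 differing between mice. The median of -0.02 was 0.10 in Alexa Fluor 546 only, -0.0715 in Alexa Fluor 647 only and 0.0644 with the sign as deposited, where the median of all genes was 0.05, -0.04 and 0.05. With the sign as deposited 11 members did not overlap (11.9%) and 1 had a dye term (4.51%). Without the WR2-C2 array, 1 member differed between mice (0.737%) and 8 had a dye term (9.76%), and with swapped arrays weighing 0.5 each, a setting chosen after seeing the data, 9 had one (11.3%).

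Of the 26 genes described in full, 13 had a difference of at least its SE. Their sign changed 11 times in the 18 alternatives that give each gene a value. With the sign as deposited these were Csnk1d (-0.0250), Map4k5 (-0.25), Mapk1ip1 (0.38), Mapk6 (-0.0630), Prkab2 (0.33), Prkci (0.0565) and Wnk4 (0.34). In Alexa Fluor 546 only they were Mapk1ip1 (0.19) and Wnk4 (0.20), and in Alexa Fluor 647 only Mapk13 (0.17) and Prkag1 (-0.44). The cause was not tested. For the other 13 genes a sign has no meaning at their error. Signal over background could not be examined, so dim clones could not be set apart.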
